A study of Mus musculus with 5 samples.

Results

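The Toll-like receptors described here are 10 genes, Tlr1 to Tlr9 and Tlr13, chosen by their symbols from the 41388 genes of 1 count table of mouse microglia, the resident macrophages of the brain. All 10 were found, and all 10 passed the filter on low counts that left 12240 genes for testing. They were divided by the place where the receptor meets its ligand, with Tlr1, Tlr2, Tlr4, Tlr5 and Tlr6 as surface receptors and Tlr3, Tlr7, Tlr8, Tlr9 and Tlr13 as endosomal receptors. RNA came from eYFP-positive cells, sorted after papain digestion of brains of C57Bl/6 mice aged 4 weeks, which had received 2 mg of tamoxifen at postnatal days 14 and 16. The control group (2 libraries) had the genotype eYFP-A20fl/wt Cx3cr1-CreERT2/+ and is labelled partially deficient for A20, so the controls also carry 1 allele that tamoxifen can delete. The A20 deletion group (3 libraries) is labelled eYFP-A20Dmg and fully deficient. CreERT2 is driven from the Cx3cr1 locus, which is active in microglia and in other mononuclear phagocytes. Whether each library stands for its own animal is not said, and p-values therefore describe the spread between libraries, some of which may be technical.

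Toll-like receptors are membrane proteins whose horseshoe-shaped outer part binds microbial molecules and whose inner part, the TIR domain, recruits the adaptors Myd88 or Ticam1 (TRIF) to start NF-kB and interferon signalling. Surface receptors mostly meet lipids and proteins of microbes, whereas endosomal receptors meet nucleic acids and need the chaperone Unc93b1 to reach the endosome and proteases there to mature. A20, the product of Tnfaip3, removes ubiquitin chains from signalling proteins downstream of these receptors. The comparison here asks how transcript levels of the receptors differ between the genotypes.

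The libraries held between 9726334 and 15275199 counts, and 3 counts amount to 0.192 to 0.306 CPM (counts scaled to library total). A20 deletion replicates 2 and 3 stood apart from the other libraries in structure. Mitochondrial transcripts took 4.63% and 3.56% of their counts, against 0.847% to 1.19% in the other 3 libraries. Genes longer than the median took 37.8% and 38.5% of the tested genes' counts in them, against 44.9% to 47.9% elsewhere. For Xist, replicate 1 of the controls had 780 counts, replicate 1 of the A20 deletion group had 616 and the other libraries had 0, so both groups mix the sexes. Tnfaip3 levels (454 and 94.7 CPM in controls, 295, 277 and 348 CPM after deletion) did not check the labels, since counts over all exons were used and the deleted exons are not named.

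Of 9 microglial markers, among them P2ry12 and Tmem119, none was at 0 throughout a group, and their summed level was 36326 and 37011 CPM in the controls and 25332 to 30201 CPM in the A20 deletion libraries. Of the 9, 1 had a higher mean with the deletion, and Fcrls passed the test as lower. In bulk RNA, fewer cells of a type and lower expression of its markers in each cell cannot be told apart. Of 8 monocyte markers 6 had a higher mean in the A20 deletion libraries, and Plac8 passed the test. Their summed level was 15.8 and 19.8 CPM in the controls and 39.4 to 65.8 CPM with the deletion, and none of the 8 was at 0 throughout a group. Of 9 T and NK cell markers 8 had a higher mean, summed to 0.356 and 0.577 CPM against 2.85 to 4.85 CPM, and 6 (Cd3e, Cd3d, Cd3g, Cd2, Trbc2 and Gzma) were at 0 in both controls. Neutrophil markers (8 genes) summed to 22.6 CPM in control replicate 1 and to 0.385 CPM in control replicate 2, and to between 1.49 and 11.6 CPM in the A20 deletion libraries. Astrocyte markers (6 genes) reached 243 and 247 CPM in A20 deletion replicates 2 and 3, against 69.7 to 123 CPM in the other libraries, with 6 of 6 means higher in the deletion group and Aldh1l1 passing the test. Oligodendrocyte markers (5 genes) summed to 336 and 332 CPM in those 2 libraries and to 169 to 232 CPM in the others. Markers of B cells (6 genes, 3 of them, Cd79a, Ms4a1 and Pax5, at 0 in both controls) summed to 341 and 275 CPM in the controls and 386 to 425 CPM with the deletion. Of these 6 genes 2 passed the filter on low counts, so the sum rests on few genes and does not measure B cells. The part of these cells in the receptor values was not tested.

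To show what a read could tell about each receptor, the coding sequences were compared with all other transcripts in GENCODE M21. In 8 of the 10 receptors no stretch of 50 bases occurred in another gene. Tlr1 and Tlr6, which lie side by side on chromosome 5, shared 454 such stretches, which were 19.4% and 19.2% of those in each. Their longest identical run was 229 bases. The 60 bases before that run and its first 60 bases are printed 5′ to 3′ to show how alike this pair is, with the 1 base that differs in capitals:
Tlr1: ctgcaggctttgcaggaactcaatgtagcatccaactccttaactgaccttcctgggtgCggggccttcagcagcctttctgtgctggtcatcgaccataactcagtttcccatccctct
Tlr6: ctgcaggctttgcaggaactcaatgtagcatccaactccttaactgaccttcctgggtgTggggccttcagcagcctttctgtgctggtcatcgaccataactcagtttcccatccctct
How the authors' counting treated reads from such a stretch is not given in the sources used here, so the split of counts between Tlr1 and Tlr6 is uncertain. An antisense gene, Gm45542, overlaps 7.32% of the exon bases of Tlr3. The strand setting is likewise not given, so reads of both genes cannot be told apart there.

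Start regions are shown for both receptors whose window held the NF-kB consensus, Tlr2 and Tlr3, and for Tlr5, the receptor that passed the test. RefSeq (GRCm38.p6) windows from 250 bases before to 30 bases after the start were found for 8 of the 10 receptors, 10 windows in all, and not used here for Tlr4 and Tlr7. Capitals mark matches to the NF-kB consensus on either strand. Tlr2 (chr3:83841579-83841858, minus strand) held 2 separate stretches, the first of them made of overlapping matches, Tlr3 (chr8:45410351-45410630, minus strand) held 1, and Tlr5 (chr1:182954538-182954817, plus strand) held none:
Tlr2: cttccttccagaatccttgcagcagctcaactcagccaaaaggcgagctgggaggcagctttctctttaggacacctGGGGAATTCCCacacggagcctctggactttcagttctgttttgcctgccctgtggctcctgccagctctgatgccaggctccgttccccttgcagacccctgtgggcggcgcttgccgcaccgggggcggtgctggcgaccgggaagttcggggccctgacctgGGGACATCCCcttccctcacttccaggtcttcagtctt
Tlr3: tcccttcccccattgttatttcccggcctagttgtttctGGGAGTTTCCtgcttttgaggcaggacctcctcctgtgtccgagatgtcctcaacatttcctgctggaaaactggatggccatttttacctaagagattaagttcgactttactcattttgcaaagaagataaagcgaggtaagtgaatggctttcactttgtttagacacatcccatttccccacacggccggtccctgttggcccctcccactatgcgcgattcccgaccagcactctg
Tlr5: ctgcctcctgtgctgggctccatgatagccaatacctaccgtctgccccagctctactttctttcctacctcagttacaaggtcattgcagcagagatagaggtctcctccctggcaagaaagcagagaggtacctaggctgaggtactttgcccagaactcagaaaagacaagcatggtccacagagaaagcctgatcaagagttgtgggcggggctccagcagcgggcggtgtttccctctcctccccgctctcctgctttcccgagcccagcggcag
The consensus was thus found in 2 of the 10 windows, which belong to 2 of the 8 receptors, and in 7.94% of all 32851 RefSeq windows of this length. Besides Tlr5, it was not found in the windows of Tlr1, which had a log2 difference above 0, or of Tlr6, Tlr8, Tlr9 and Tlr13, which had one below 0. Further motifs were searched on both strands. The repeat of interferon-stimulated response elements, GAAA and again GAAA with any 2 bases between, was found in 1 of the 2 windows of Tlr6 (as a pair of overlapping matches) and in 3.28% of all windows, and GAGGAA, an ETS core of the kind PU.1 binds, in 1 of the 2 windows of Tlr1 and in those of Tlr8, Tlr9 and Tlr13, and in 26.0% of all windows. A match is a description of letters, and no match says only that these letters are not in this window.

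Of the 10 receptors, 1 passed the test between the genotypes. Tlr5, the flagellin receptor, was 2.89-fold lower with the A20 deletion (12.7 ± 1.80 against 36.8 ± 5.0 CPM, SD, n = 3 and 2). Tlr2, the lipoprotein receptor, stood at 527 ± 61.5 against 297 ± 3.47 CPM (SD, n = 3 and 2) and narrowly missed the threshold. By edgeR's quasi-likelihood test (adjusted p under 0.05 over all genes) 1 of 10 receptors was called in either direction, where 2.59% of all tested genes were. None rose, where 2.08% of genes did, and 1 fell, where 0.507% did. At an unadjusted p under 0.05 there were 2 higher (Tlr1 and Tlr2) and 2 lower (Tlr5 and Tlr7), where 12.8% and 8.26% of all genes had such a p. DESeq2 called 1 receptor higher and 1 lower (6.08% and 2.99% of all genes), and limma-voom 0 and 1 (1.36% and 0.368% of all genes). The median log2 fold change of the 10 was -0.26, against 0.05 over all tested genes, with 3 values above 0 and 7 below. For 7 of 10 receptors the groups did not overlap, 3 of them higher and 4 lower with the deletion, where 40.2% of all genes did not overlap (21.8% higher and 18.5% lower).

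**Figure D1:**
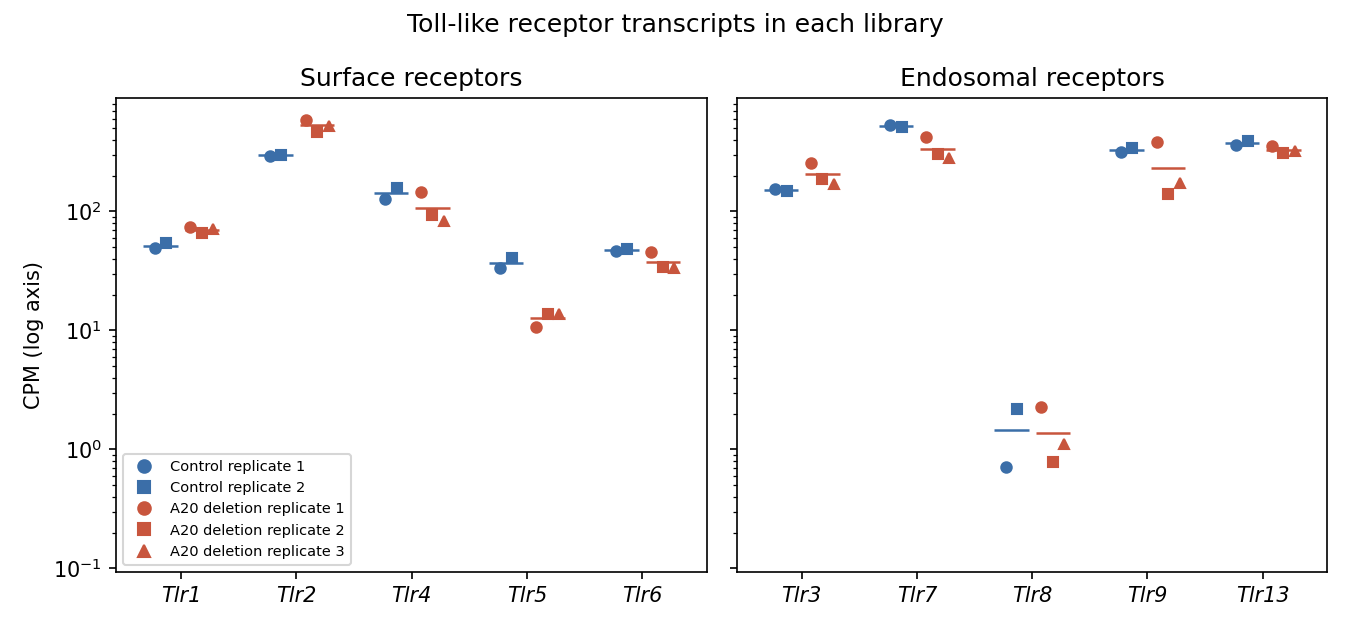
CPM (log axis) of each Toll-like receptor in the 2 control and 3 A20 deletion libraries, surface receptors left and endosomal receptors right; each point is a library and each line a group mean. Tlr5 lies between 10.7 and 13.9 CPM with the deletion, below both controls, Tlr2 lies above both controls in all 3 A20 deletion libraries, and Tlr8 lies at 0.711 to 2.25 CPM.

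Among the surface receptors, Tlr5 (ENSMUSG00000079164, GRCm38 chromosome 1, 182954788 to 182976044, plus strand), the receptor for bacterial flagellin, had the largest difference. It was counted 467 and 628 times in the controls and 123, 174 and 136 times with the deletion, which gave 33.2 and 40.3 CPM against 10.7, 13.7 and 13.9 CPM. Every A20 deletion library lay below both controls, and A20 deletion replicate 1 was the lowest. Controls averaged 36.8 ± 5.0 CPM (SD, n = 2) and A20 deletion libraries 12.7 ± 1.80 CPM (SD, n = 3), 2.89-fold less (log2 fold change -1.53, SE 0.20, 95% interval -2.01 to -1.05, edgeR adjusted p = 0.0156). The size held over all alternatives, between -1.78 and -1.44, and Tlr5 passed in 12 of 15 of them. Leaving out A20 deletion replicate 1 gave an edgeR adjusted p of 0.00119 (15.7% of all genes higher and 16.7% lower). With A20 deletion replicate 2 left out it was 0.0431 (1.35% and 0.171%). The call was lost when any other single library was left out. Leaving out control replicate 1 gave an edgeR adjusted p of 0.102 (0.123% of all genes higher and 0.0154% lower). With control replicate 2 left out it was 0.201 (0.0% of genes in each direction), and with A20 deletion replicate 3 left out 0.0624 (0.727% and 0.0427%). With A20 deletion replicates 2 and 3 both omitted it was 0.00796, in a fit that assumes that the remaining A20 deletion library varies like the controls.

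Tlr2, which recognises bacterial lipoproteins as the partner of Tlr1 or Tlr6, was the surface receptor with the most counts. It lies on chromosome 3 (ENSMUSG00000027995, 83836272 to 83841767, minus strand). Its level was 294 and 299 CPM in the controls and 591, 468 and 521 CPM with the deletion. The controls differed little from each other, and all 3 A20 deletion libraries lay above them, replicate 1 the highest. Controls averaged 296.7 ± 3.47 CPM (SD, n = 2) against 527 ± 61.5 CPM (SD, n = 3), with a log2 difference of 0.83 (SE 0.17, 95% interval 0.44 to 1.22). This missed the threshold narrowly (edgeR adjusted p = 0.0543) and passed in 6 of 15 alternatives. The adjusted p was 0.000435 by DESeq2 and 0.00494 by edgeR without A20 deletion replicate 1. Among the alternatives that did not pass, it was 0.0509 by limma-voom, and by edgeR 0.105 with the length trend removed and 0.138 with the replicate block. With A20 deletion replicates 2 and 3 both omitted the log2 difference was 1.0. With upper-quartile scaling the edgeR adjusted p was 0.0276 (2.22% of all genes higher and 0.466% lower). A stricter filter of at least 5 CPM in 2 libraries gave 0.0314 (3.08% and 0.707%), and no filter 0.00776 (5.06% and 3.15%). Over all alternatives its log2 difference ranged from 0.71 to 1.0 and its adjusted p from 0.000435 to 0.412.

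The partners of Tlr2 lay on different sides of the controls. Tlr1, which joins Tlr2 for triacylated lipopeptides, stood at 49.1 and 54.2 CPM in the controls, against 74.5, 65.7 and 70.7 CPM with the deletion. Its groups did not overlap, and the log2 difference was 0.44 (SE 0.16, edgeR adjusted p = 0.19). Tlr6, which joins Tlr2 for diacylated lipopeptides, stood at 46.0 and 48.2 CPM and at 45.6, 33.8 and 33.7 CPM. A20 deletion replicate 1 lay just under the controls and the other 2 libraries lower (log2 -0.32, SE 0.19, edgeR adjusted p = 0.362). Neither passed, the difference between the pair was not tested, and the shared sequence printed above makes the split of their counts uncertain.

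Tlr4, the receptor for lipopolysaccharide, did not separate the groups. The controls had 128 and 157 CPM, and A20 deletion replicate 1 lay between them at 146 CPM, while replicates 2 and 3 lay below at 92.8 and 83.2 CPM. Its log2 difference was -0.41 (SE 0.26, edgeR adjusted p = 0.393).

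Among the endosomal receptors none passed by edgeR, and 1 of the 5 had an unadjusted p under 0.05. That was Tlr7, a receptor for single-stranded RNA and the endosomal receptor with the highest level. It lies on the X chromosome (ENSMUSG00000044583, 167304929 to 167330558, minus strand) and stood at 530 and 511 CPM in the controls, against 423, 301 and 283 CPM with the deletion. All 3 A20 deletion libraries lay below the controls, replicates 2 and 3 well below replicate 1. Controls averaged 521 ± 14 CPM (SD, n = 2) against 335 ± 75.9 CPM (SD, n = 3), with a log2 difference of -0.63 (SE 0.21, 95% interval -1.12 to -0.15, edgeR adjusted p = 0.165). It passed with no low-count filter (adjusted p = 0.0277) and without A20 deletion replicate 1 (adjusted p = 0.0023), and its log2 difference was -0.29 with A20 deletion replicates 2 and 3 both omitted.

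Tlr9, which recognises DNA with unmethylated CpG, varied most within the A20 deletion group. The controls stood at 312 and 342 CPM, A20 deletion replicate 1 above both at 386 CPM, and replicates 2 and 3 below both at 139 and 173 CPM. The A20 deletion mean of 233 ± 134 CPM (SD, n = 3) therefore describes no library of the group. The log2 difference was -0.49 (SE 0.41, edgeR adjusted p = 0.497). It was -1.09 without A20 deletion replicate 1 and 0.25 with replicates 2 and 3 both omitted, so its direction depended on which libraries stood for the deletion.

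Tlr3, the receptor for double-stranded RNA and the one that signals through Ticam1 alone, was the sole endosomal receptor with a value above 0. Its levels were 154 and 147 CPM in the controls, against 257, 188 and 169 CPM with the deletion. The groups did not overlap, with A20 deletion replicate 3 close to the controls (log2 0.44, SE 0.21, edgeR adjusted p = 0.281). Tlr13, which recognises bacterial ribosomal RNA, stood at 362 and 387 CPM and at 355, 309 and 319 CPM. This was the smallest difference among the receptors above 10 CPM (log2 -0.19, SE 0.15, 95% interval -0.55 to 0.16, edgeR adjusted p = 0.473). Tlr8, another receptor for single-stranded RNA, was barely detected: 10 and 34 counts in the controls and 26, 10 and 11 counts with the deletion. At 0.711 to 2.25 CPM over the 5 libraries, a difference was not detectable at this depth (95% interval of the log2 difference -1.84 to 1.71).

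**Figure D2:**
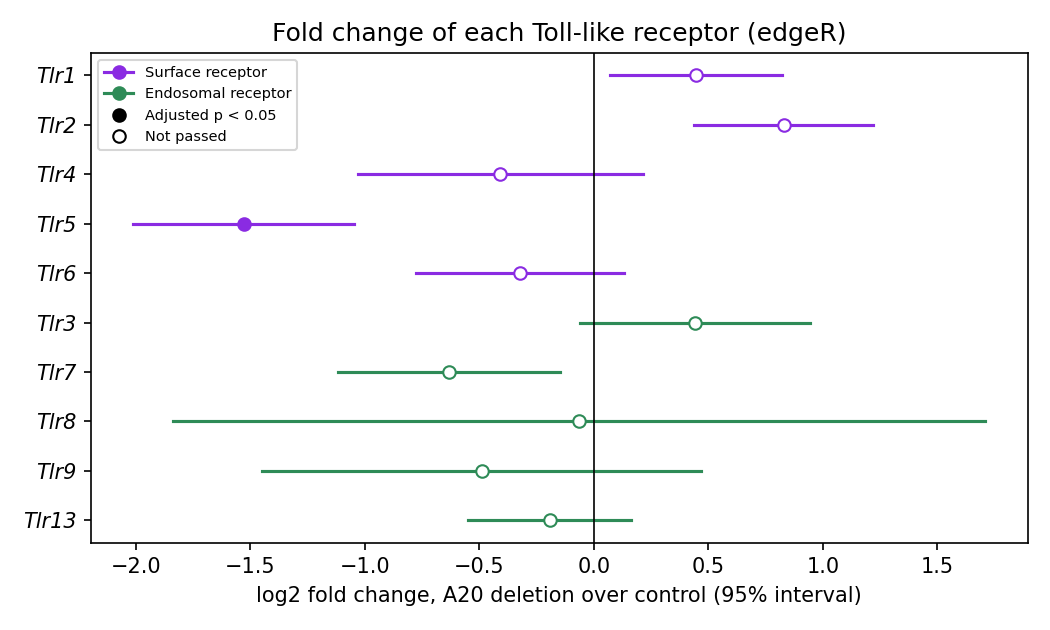
Log2 fold change of each Toll-like receptor, A20 deletion over control, from edgeR, with its 95% interval; a filled point marks an adjusted p under 0.05. Tlr5 at -1.53 is the sole filled point, Tlr2 at 0.83 is the highest, and the interval of Tlr8 runs from -1.84 to 1.71.

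Compared as classes, surface receptors held a larger share of all Toll-like receptor transcripts in the A20 deletion libraries. Of the CPM summed over the 10 genes, surface receptors took 28.8% and 30.1% in the controls and 37.9%, 41.8% and 43.4% with the deletion. The groups did not overlap in this share, which is a description with no test. The sum over surface receptors was 550 and 599 CPM in the controls and 868, 674 and 723 CPM with the deletion, above both controls in every A20 deletion library. The sum over endosomal receptors was 1360 and 1389 CPM in the controls, 1423 CPM in A20 deletion replicate 1 and 938 and 944 CPM in replicates 2 and 3. The first of these lay just above the controls and the other 2 well below.

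The class difference was not seen when Tlr2 was left out of the sums. Tlr2 alone was 15.4% and 15.1% of the summed CPM in the controls and 25.8%, 29.0% and 31.3% with the deletion. Without Tlr2 the surface share was 16.8% ± 1.36 (SD, n = 2) and 17.3% ± 0.90 (SD, n = 3), a difference smaller than the SD between the controls. Without Tlr7, the largest endosomal member, it was 40.2% ± 0.48 and 50.03% ± 3.14. By fold changes the classes were mixed as well: 2 of 5 surface and 1 of 5 endosomal receptors had a value above 0, and the class medians were -0.32 and -0.19 on the log2 scale.

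**Figure D3:**
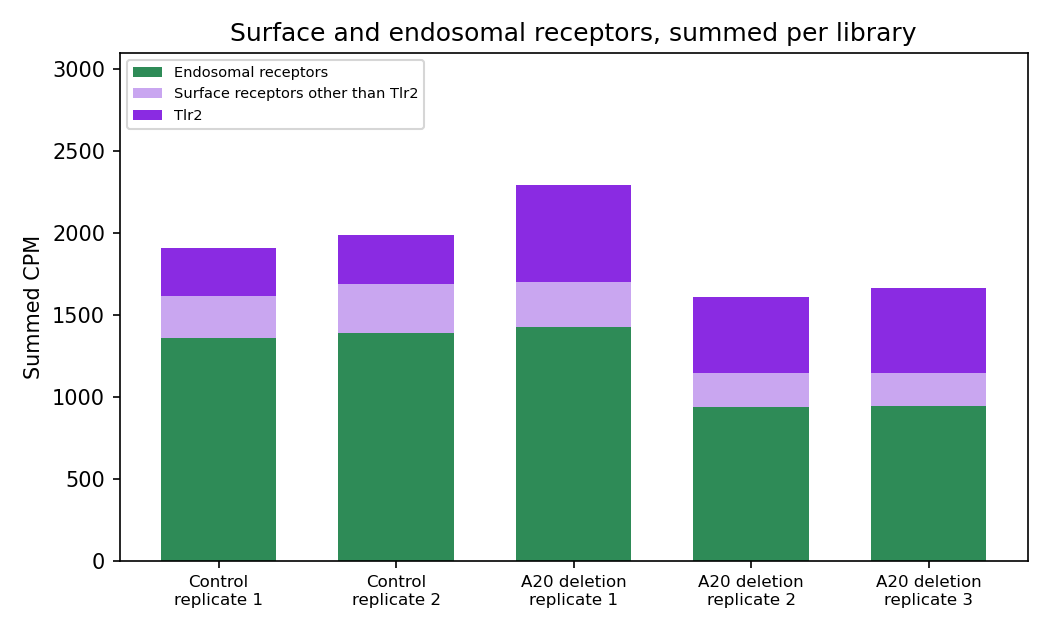
CPM summed over endosomal receptors, over Tlr2 and over the other surface receptors, stacked for each of the 5 libraries. Tlr2 makes up 294 and 299 CPM in the controls and 468 to 591 CPM with the deletion, and the endosomal sum is lowest in A20 deletion replicates 2 and 3.

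Levels of different receptors were compared per kilobase of exon. In the controls Tlr7 led with 128 ± 3.44 CPM per kilobase (SD, n = 2), ahead of Tlr2 at 98.5 ± 1.15, Tlr9 at 94.0 ± 5.93 and Tlr13 at 87.0 ± 4.11. The ranges of Tlr2 and Tlr9 overlapped, as did those of Tlr9 and Tlr13. Within each control library, however, Tlr2 lay above Tlr9 and Tlr9 above Tlr13. Then came Tlr3 at 28.9 and Tlr4 at 25.7 CPM per kilobase, which overlapped each other and changed order between the controls. Below them, each apart from its neighbours, were Tlr1 at 15.4, Tlr6 at 12.6, Tlr5 at 7.67 and Tlr8 at 0.403. With the deletion Tlr2 led at 175 ± 20.4 CPM per kilobase (SD, n = 3), apart from Tlr7 at 82.2 ± 18.6. The ranges of Tlr7, Tlr13 (76.1 ± 5.73) and Tlr9 (66.9 ± 38.5) overlapped as neighbours, and so did those of Tlr9 and Tlr3 and of Tlr1 and Tlr4. Within each A20 deletion library Tlr9 lay above Tlr3, while the other overlapping neighbours changed order between libraries. Tlr6, Tlr5 and Tlr8 kept the last places in both groups. On this scale the surface share was 32.1% ± 0.64 in the controls and 46.7% ± 3.52 with the deletion.

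The A20 deletion libraries differed among themselves in the same way for most receptors. In 9 of 10 receptors replicate 1 lay above both replicates 2 and 3, where this held for 39.9% of all tested genes, and the exception was Tlr5, which was lowest in replicate 1, as were 42.8% of genes. Leaving out replicate 1 gave 1 receptor higher (Tlr2) and 5 lower (Tlr4, Tlr5, Tlr6, Tlr7 and Tlr9) by edgeR, where 15.7% and 16.7% of all genes passed. In that fit the groups coincide with the mitochondrial, long-gene, astrocyte and oligodendrocyte values of replicates 2 and 3 given above. Genotype and this structure cannot be told apart. Xist differs there too: the remaining A20 deletion libraries had 0 counts, against 780 and 0 in the controls. A20 deletion replicate 1, left out there, had 616. The part of sex was not tested. With replicates 2 and 3 both omitted 1 receptor was higher (Tlr2) and 1 lower (Tlr5), where 2.64% and 0.64% of all genes passed. Between these fits 7 of the 10 receptors kept the sign of their log2 difference, and Tlr4, Tlr9 and the barely detected Tlr8 changed it.

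**Figure D4:**
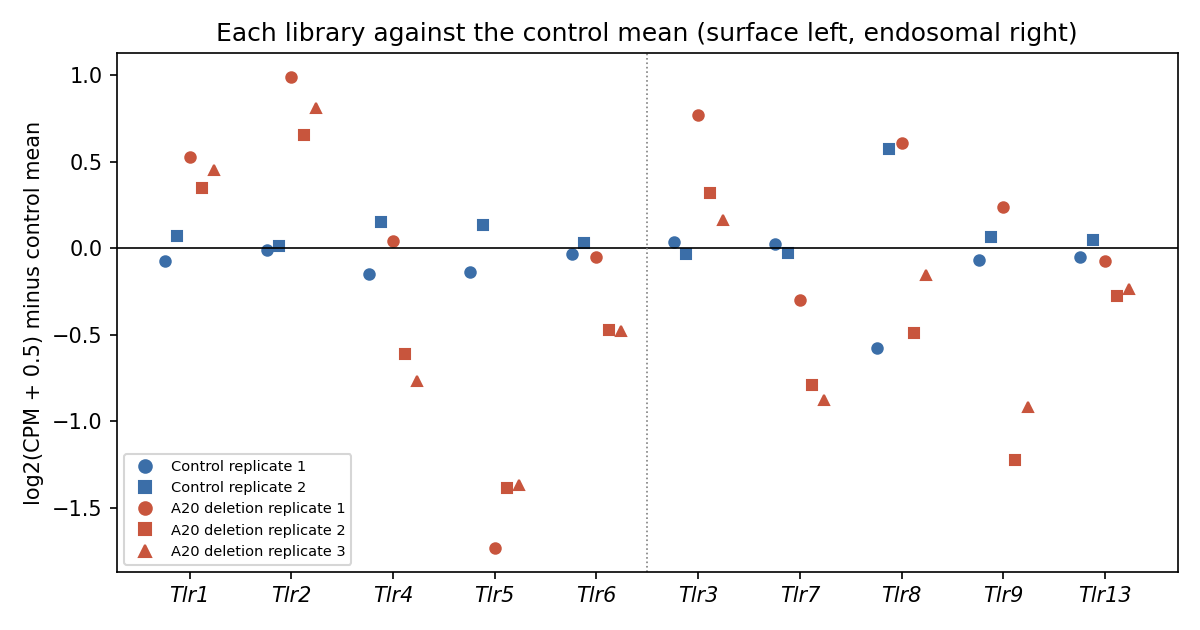
Difference of log2(CPM + 0.5) from the control mean for each receptor in each library, surface receptors left of the dotted line and endosomal receptors right. A20 deletion replicate 1 (red circles) lies above replicates 2 and 3 in 9 of the 10 receptors, and for Tlr9 it lies above 0 while the other 2 lie below.

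Beyond the receptors themselves, 51 genes of their pathway were listed by role, and 50 were tested. By edgeR 3 rose and 0 fell, where 2.08% and 0.507% of all genes did. At an unadjusted p under 0.05 12 genes were higher and 4 lower, where 12.8% and 8.26% of all genes were. DESeq2 called 8 and 0, where it called 6.08% and 2.99% of all genes. Their median difference was 0.11 on the log2 scale. The genes that rose were Irf7, Ctss and Tank. Irf7, the interferon regulatory factor that Tlr7 and Tlr9 activate through Myd88, went from 13.2 and 12 CPM to 260.0, 118 and 180 CPM (14.8-fold, log2 3.89, SE 0.37, edgeR adjusted p = 0.00655), with all A20 deletion libraries far above the controls. Ctss, a lysosomal protease that takes part in cutting endosomal receptors, rose 1.67-fold, from 7962 ± 296 to 13334 ± 777 CPM (SD, n = 2 and 3, edgeR adjusted p = 0.0267). Tank, a TRAF-binding protein that restrains Toll-like receptor signalling, rose 1.84-fold, from 22.8 ± 1.25 to 41.9 ± 2.72 CPM (SD, n = 2 and 3, edgeR adjusted p = 0.0453). Counts of calls moved with single libraries, for pathway genes as for all genes. With control replicate 1 or 2 left out, edgeR called 0 pathway genes higher, and 0.123% and 0.0% of all genes. Leaving out A20 deletion replicate 2 gave 1 pathway gene higher (all genes 1.35% higher and 0.171% lower), and replicate 3 likewise 1 (all genes 0.727% higher). Without replicate 1 there were 10 higher and 9 lower, where 15.7% and 16.7% of all genes passed.

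The genes closest to the receptors did not pass, where 2.59% of all tested genes did. In lists this short, no call therefore says little. Of 2 further mouse receptors outside the 10, Tlr12, a sensor of profilin, stood at 118 CPM in both controls, against 164, 141 and 132 CPM (edgeR adjusted p = 0.325). Tlr11, its partner, had 1 and 5 counts in the controls and 34, 21 and 22 counts with the deletion (edgeR adjusted p = 0.0868). Of 6 surface co-receptors none passed. At an unadjusted p under 0.05 by edgeR 3 were higher and 0 lower, where 12.8% and 8.26% of all genes were. The nearest was Cd180, a receptor-like protein of the lipopolysaccharide response, at 335 ± 6.14 and 461 ± 7.79 CPM (SD, n = 2 and 3, edgeR adjusted p = 0.152). Its partner Ly86, the co-receptor with the highest CPM, stood at 931 ± 89.5 and 1137 ± 101 CPM (SD, edgeR adjusted p = 0.322). Among 8 chaperone and trafficking genes none passed, with Unc93b1 at 1594 and 1874 CPM in the controls and 2091, 2390 and 2374 CPM with the deletion (log2 0.40, SE 0.15, edgeR adjusted p = 0.203). All 3 A20 deletion libraries lay above the controls for Unc93b1. Tlr11 and Tlr12, which were placed in neither receptor class here, had log2 differences of 3.45 and 0.30. Of the 5 endosomal receptors among the 10, 4 had a log2 difference below 0, as did 5685 of all 12240 tested genes. None of these 4 passed. They include the barely detected Tlr8, and Tlr9, for which A20 deletion replicate 1 lay above both controls.

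Signalling genes downstream of the receptors were mostly without a call, as were most tested genes, of which 2.59% were called. Of 6 adaptors none passed. Ticam2, the bridging adaptor of Tlr4, had the smallest p, at 32.3 ± 2.98 and 23.8 ± 1.38 CPM (SD, n = 2 and 3, edgeR adjusted p = 0.209). The span of Ticam2 on chromosome 18 overlaps that of Tmed7 on the same strand, a listed trafficking gene averaging 422 and 309 CPM. Overlap of their exons was not checked. Pik3ap1, an adaptor linking receptors to PI3-kinase, stood at 389 and 363 CPM in the controls, 598 CPM in A20 deletion replicate 1 and 215 and 266 CPM in replicates 2 and 3. A20 deletion replicate 1 lay above both controls and the other 2 libraries below, as they did for Tlr9. Of 9 kinases and ligases none passed. Ikbke, an IKK-related kinase, had 0 and 4 counts in the controls and 20, 11 and 12 counts with the deletion (edgeR adjusted p = 0.187), and Peli1, a ubiquitin ligase, stood at 112 ± 13.3 and 126 ± 21.6 CPM (SD, edgeR adjusted p = 0.617). Irf8, a lineage factor of microglia and the transcription factor with the highest CPM, stood at 872 ± 81.3 and 869 ± 86.3 CPM (SD, edgeR adjusted p = 0.988). Among 9 brakes of the pathway Tank alone passed, and Dusp1, a phosphatase acting on MAP kinases, had 1355 and 502 CPM in the controls and between 1035 and 1307 CPM with the deletion.

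The genes whose pattern over the 5 libraries lay nearest to that of Tlr5, among 8197 with a mean log2 CPM of at least 3, were Bank1, Abi2 and Cdk5r1. Likeness was the root mean square difference of log2 CPM after centring each gene, which was 0.11, 0.14 and 0.15. Bank1 stood at 42.3 and 58.5 CPM in the controls, against 13.9, 21.6 and 18.9 CPM with the deletion. Like Tlr5, it was lower in control replicate 1 than in replicate 2 and lowest in A20 deletion replicate 1. It was chosen for this likeness over the same libraries, so the shared order is no separate result.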

How the data were processed

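The authors deposited 1 table of raw read counts, with Ensembl gene identifiers. The tools listed per the submitters' processing notes are STAR 2.4.0j, featureCounts and DESeq2 1.22.1, with build GRCm38; strand setting, annotation release and multi-mapping rule were not given in the sources used here. Of 41388 genes 40254 matched a GENCODE M21 symbol, and 1134 did not, making up 0.0557% to 0.069% of counts per library; they were tested too.

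The test was run in edgeR 4.0.16 (R 4.3.3), after filterByExpr with count minimum 10 and total minimum 15 and TMM scaling. Groups were compared with the quasi-likelihood test (two-sided, no covariate), with Benjamini-Hochberg adjustment over 12240 genes and a threshold of 0.05. CPM uses the scaled library total, and CPM per kilobase divides by the summed exon length in GENCODE M21. The SE is the log2 fold change divided by the square root of F and is approximate. All library pairs differed beyond sampling noise (chi-square over degrees of freedom 15.8 to 146). The lowest value was that of A20 deletion replicates 2 and 3, and every other pair had 51.5 or more. The procedure was run on simulated counts with known changes. These did not include the structure of A20 deletion replicates 2 and 3, so the run cannot speak to its effect on the calls.

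The receptors and lists were chosen with earlier results of these data known. Some listed markers are not reported here. All 10 receptors are named. Pathway genes are named if they passed, or had the smallest p or the highest CPM of their role, and the 3 genes nearest in pattern are named for each receptor that passed. Tmed7 is named as the neighbour of Ticam2. Alternatives were scaling by upper quartile, by DESeq2's size factors or by library size, no filter, a stricter filter, DESeq2 1.42.0, limma-voom (limma 3.58.1), an adjusted p under 0.01, a block on the replicate number, each library left out in turn, A20 deletion replicates 2 and 3 left out together, and removing each library's trend on gene length by lowess, with the 51 tested genes of unknown length set at the median.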

Additional observations from a re-analysis of the deposited data

How the results depend on the processing

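Among the receptors' log2 fold changes, 137 of 159 values under the alternatives kept their direction and their side of the threshold. Receptors higher numbered 1 in place of 0 with upper-quartile scaling, with no low-count filter, with the stricter filter, with DESeq2 and with A20 deletion replicates 2 and 3 both omitted, each time Tlr2, and 0 to 1 when each library was left out. Receptors lower numbered 2 in place of 1 with no filter, 0 at an adjusted p under 0.01, and 0 to 5 when each library was left out. Over all genes, 255 higher and 62 lower became 1048 and 653 with no filter, 744 and 366 with DESeq2, and 56 and 2 at an adjusted p under 0.01. There were 166 higher with limma-voom. They ranged from 0 (without control replicate 2, where 1323 genes had an unadjusted p under 0.05 by edgeR) to 1902 higher and 2021 lower (without A20 deletion replicate 1) when each library was left out. Pathway genes higher, 3 in the comparison reported, numbered 5 with upper-quartile scaling, 6 with no filter, 5 with the stricter filter, 8 with DESeq2, 1 at an adjusted p under 0.01 and 0 to 10 when each library was left out, and those lower 0 to 9. Reversed values were 0.046 for Tlr4 and 0.25 for Tlr9 with A20 deletion replicates 2 and 3 both omitted, -0.62 for Tnfaip3 without control replicate 2, and for Tlr8, which is near the limit of detection, 0.082 with the replicate block, 0.90 without control replicate 2, 0.23 and 0.06 without A20 deletion replicates 2 and 3 in turn and 0.64 with both omitted. When each library was left out, Tlr8 ranged from -0.69 to 0.90 and Tnfaip3 from -0.62 to 1.65. The causes were not tested. The surface share moved from 29.5% to 32.1% (controls) and from 41.0% to 46.7% (A20 deletion) per kilobase, to 16.8% and 17.3% without Tlr2, and to 40.2% and 50.03% without Tlr7.

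The replicate numbers were used as a block although the labels do not say what they stand for, and the groups share 2 of them. Number 3 occurs in the A20 deletion group alone, so the log2 differences of that fit rest on replicates 1 and 2 of each group. Xist had 780 and 616 counts in replicate 1 of the 2 groups and 0 in replicate 2 of both. The block therefore also divides these libraries by Xist. With this replicate block 32 genes were lower, 1 pathway gene was higher, and the receptors called did not change in number. Deviations from the group means correlated at 0.26 for number 1 and 0.17 for number 2, and at 0.22 for control replicate 2 with A20 deletion replicate 3, which carry different numbers. Fits that leave a group with 1 library assume that it varies like the other group.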

Other observations

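Tlr7, Tlr8 and Tlr13 lie on the X chromosome, and Xist was counted in control replicate 1 and A20 deletion replicate 1 alone. Between the controls, the library with Xist stood at 530 against 511 CPM for Tlr7, at 0.711 against 2.18 CPM for Tlr8 and at 362 against 387 CPM for Tlr13. Within the A20 deletion group, the library with Xist was the highest for all 3 genes, at 423 against 301 and 283 CPM for Tlr7, at 2.25 against 0.786 and 1.12 CPM for Tlr8 and at 355 against 309 and 319 CPM for Tlr13. Replicate 1 was also the highest of that group in the autosomal Tlr1, Tlr2, Tlr3, Tlr4, Tlr6 and Tlr9. The part of sex in these values was not tested.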
